A study of Mus musculus with 10 samples.

Results

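The genes that encode the proteins of the cytoplasmic ribosome were taken from the GENCODE M21 annotation of the mouse genome (mm10) by symbol. A member was a protein-coding gene named Rpl or Rps followed by a digit, or Rplp followed by a digit. Rps6k kinases, names with -ps and names with a final l after the number, which marks a paralogue such as Rps27l, were left out. The rule gave 78 of 21938 protein-coding genes, on 19 chromosomes, with 4 of them on the X chromosome. Read letter by letter, the same rule also drops Rpl3 to Rpl9 and leaves 71 genes. It takes in Rps19bp1, a protein that binds a ribosomal protein, and Rps27rt, a retrocopy of Rps27. It misses some, such as Rpsa and Fau, which encode ribosomal proteins under other names. The 78 members comprise 46 genes of the large subunit, the 3 stalk genes Rplp0, Rplp1 and Rplp2 among them, and 32 named for the small subunit.

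Chromatin accessibility was measured by ATAC-seq, in which a transposase inserts sequencing adapters into open DNA, in the Myc-CaP line, which derives from a prostate tumour of an FVB/NJ mouse and carries a Myc transgene under a promoter active in prostate epithelium. The 10 libraries fall into 5 groups of 2, all taken at 48 h: Ctrl, which had no drug, Oxali, with oxaliplatin at 2 µM, Cispl, with cisplatin also at 2 µM, IFNγ, with the cytokine interferon-γ (1000 pg in the labels, no volume), and Oxali + IFNγ, with the former and the latter at those amounts. Both platinum drugs form adducts with DNA, and interferon-γ acts through JAK and STAT proteins. The authors pooled both libraries of a group before they called peaks, so each group is 1 list, no spread between replicates can be given and no difference below has a test.

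A start-site region was a called interval that overlapped 1000 bp on either side of any annotated transcript start of the gene, and it counted as strong where the q-value did not exceed 0.01. The level of a gene was the highest pileup of reads at a summit of its start-site regions, divided by the genome background of the list, a measure of its depth. It is a height at 1 base and does not depend on gene length. The genome background was 12.1 reads in Ctrl, 11.3 with Oxali, 13.8 with Cispl, 9.62 after IFNγ and 12.9 after Oxali + IFNγ, so the IFNγ list was the shallowest, at 79.3% of the depth of Ctrl. Member summits held 209 to 2692 reads. Of the luminal markers, Krt8, Foxa1 and Hoxb13 had strong start-site regions in every list, whereas Cdh1 had no region in any list, Krt18 had one only in Ctrl (3.54) and Oxali (4.08) and Epcam only in IFNγ (2.49). Of the markers of other cell types, Cd3e, Krt5 and Trp63 had no region in any list, Ptprc was between 2.47 and 2.93 in the 3 platinum lists, Pecam1 was between 2.39 and 2.98 in Ctrl, Cispl and Oxali + IFNγ, and Col1a1 was between 28.4 and 49.9 in every list. The part of these cells in the levels was not tested.

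A ribosome has a large subunit, which joins amino acids, and a small subunit, which reads the mRNA. Their proteins are needed in nearly equal numbers, and their genes, scattered over the genome, are transcribed at high rates in growing cells, with Myc among the factors known to drive them. Their promoters are compact and mostly lack a TATA box. Transcription starts at a C within a run of pyrimidines, and the resulting 5′ terminal oligopyrimidine (TOP) tract lets the mTOR pathway control translation of the mRNA.

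Promoter sequences came from RefSeq on GRCm38.p6, the assembly of mm10, from 250 bases before to 50 after the annotated start, and were matched for 58 of the 78 members and 16538 of all genes. The stretches of 8 follow, from 100 bases before to 10 after the start, because they hold the ends of the range: Rpl37 and Rpl37a had the highest and the lowest level in Ctrl, Rpl23, Rps10 and Rpl7a were among the 4 members lowest against Ctrl in Oxali + IFNγ by highest level, Rpl28 and Rpl5 among the 4 least changed there, and Rps15a was the lowest with IFNγ. Capitals mark exact matches on either strand to the ETS core CCGGAAG, the GC box GGGCGG and the E-box CACGTG that Myc and Max bind. Matches to the YY1 core AAGATGGC and the element TCTCGCGA are marked in the same way. A pyrimidine run is marked from a C within 1 base of the start onward, and it can begin before that C. The position given for a run is that of the C.
Rpl37: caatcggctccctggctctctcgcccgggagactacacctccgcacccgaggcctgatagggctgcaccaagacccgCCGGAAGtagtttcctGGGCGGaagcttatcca
Rpl37a: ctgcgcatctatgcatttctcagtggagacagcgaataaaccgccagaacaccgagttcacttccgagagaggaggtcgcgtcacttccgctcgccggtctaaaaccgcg
Rpl23: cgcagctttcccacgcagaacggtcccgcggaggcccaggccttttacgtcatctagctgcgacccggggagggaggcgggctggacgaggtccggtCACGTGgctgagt
Rps10: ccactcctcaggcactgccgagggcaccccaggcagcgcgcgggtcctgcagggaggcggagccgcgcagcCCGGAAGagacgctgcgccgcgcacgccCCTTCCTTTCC
Rpl7a: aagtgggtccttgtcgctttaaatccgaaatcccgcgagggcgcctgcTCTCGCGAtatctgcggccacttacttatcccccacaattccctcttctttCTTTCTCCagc
Rps15a: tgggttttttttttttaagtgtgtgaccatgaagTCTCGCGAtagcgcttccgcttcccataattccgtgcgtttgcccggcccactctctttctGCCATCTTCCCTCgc
Rpl28: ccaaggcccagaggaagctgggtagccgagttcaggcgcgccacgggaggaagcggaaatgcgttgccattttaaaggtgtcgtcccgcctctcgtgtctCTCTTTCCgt
Rpl5: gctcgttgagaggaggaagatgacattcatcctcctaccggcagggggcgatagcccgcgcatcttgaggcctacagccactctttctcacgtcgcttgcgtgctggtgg
They lie at chr15:5116513-5116622 (Rpl37, plus strand), chr1:72711160-72711269 (Rpl37a, plus), chr11:97782430-97782539 (Rpl23, minus), chr17:27635235-27635344 (Rps10, minus), chr2:26910707-26910816 (Rpl7a, plus), chr7:118116138-118116247 (Rps15a, minus), chr7:4792865-4792974 (Rpl28, plus) and chr5:107900428-107900537 (Rpl5, plus). Each holds the end of the promoter and the first 10 bases of the RefSeq transcript, and for Rpl37 and Rpl37a it ends before the 5′ end of the GENCODE gene. Counted with the start as 1 and no 0, Rpl37 has the ETS core at −23 and a GC box at −7, Rpl23 an E-box at −3 that spans the start, and Rps10 an ETS core at −29 before a pyrimidine run at −1. Rpl7a and Rps15a hold TCTCGCGA at −52 and −66 and a pyrimidine run at −1 and 1. In Rps15a the YY1 core on the other strand, at −5, overlaps that run. Rpl28 has the run alone, at 1, and no match lies in the stretches of Rpl37a and Rpl5.

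Over the whole 300-base windows, the element TCTCGCGA was the motif whose share in members was highest relative to that in all promoters. It was present in 11 of 58 member promoters, 19.0%, against 1.51% of all promoters and 2.24% of the 9989 whose genes had strong start-site regions in every list. The 11 genes were Rpl7a, Rpl10a, Rpl12, Rpl26, Rpl27a, Rpl35, Rps3a1, Rps6, Rps15a, Rps19 and Rps28, and the middle 50% of its matches began between −63 and −26. The element and its reverse complement overlap when they meet, and such a site counts as 1 promoter. The pyrimidine run at the start was found in 17 members, 29.3%, against 6.37% of all promoters, and it counts only where the annotated base is within 1 of the real start. The ETS core was in 21 members, 36.2%, against 12.4% of all and 18.5% of open promoters.

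**Figure D1:**
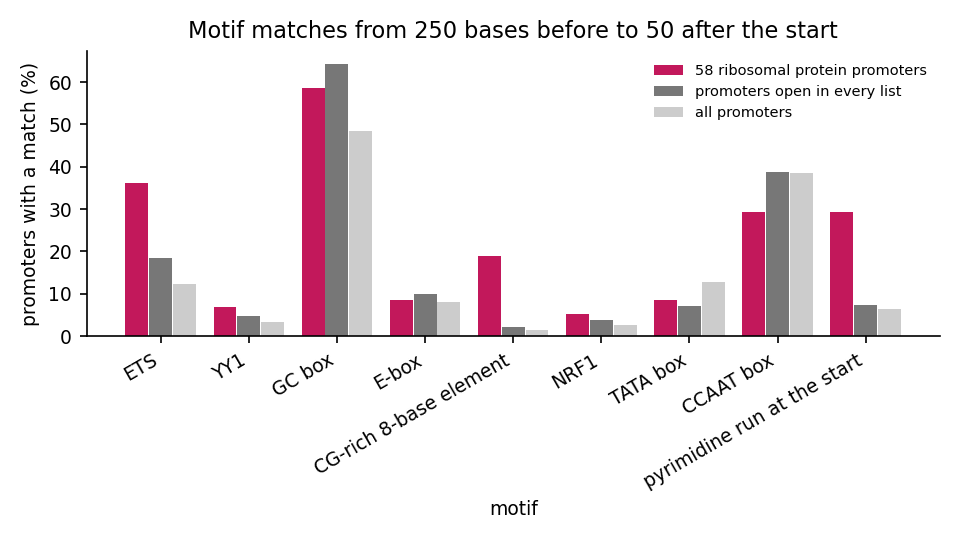
Share of promoters (%, y axis) with an exact match to each motif (x axis) in the 300-base window, for 58 member promoters, for promoters open in every list and for all promoters. The CG-rich 8-base element is TCTCGCGA, at 19.0% of members against 1.51% of all promoters, and the pyrimidine run at the start is at 29.3% against 6.37%.

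Other motifs were nearer to the shares of other open promoters. The GC box was in 58.6% of members and 64.2% of open promoters, the CCAAT box (CCAAT) in 29.3% and 38.9%, the E-box in 8.62% and 10.1%, the YY1 core in 6.90% and 4.73%, the NRF1 site CGCATGCG in 5.17% and 3.92%, and the TATA box (TATAAA) in 8.62% and 7.04%. The E-box was found in Rpl13a, Rpl14, Rpl19, Rpl23 and Rpl34. The TATA box letters were found in Rplp0, Rpl36a, Rpl39, Rps2 and Rps28. The GC content of member windows had a median of 57.3%, beside 60.7% for open promoters, and both had a median of 21 CpG.

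A strong start-site region was found for 77 of the 78 members in every list. Rps27rt was the exception, with no region in any of the 5 lists. Over all protein-coding genes the share with a strong region was 60.4% in Ctrl, 63.0% with Oxali, 63.8% with Cispl, 59.7% after IFNγ and 64.3% after Oxali + IFNγ. The region of a member was of ordinary size, with a median width of 1036 bp in Ctrl against 1095 bp over the 12749 genes that were strong in every list. The highest summit lay within 150 bp of a start for 68 of 77 members, 88.3%, against 73.6% of those genes. With Oxali + IFNγ these shares were 74.0% and 64.5%, and the median summit of the members moved from 35 to 57 bp upstream of the start, while over all genes it was 35 and 28 bp upstream. Another gene starts within 1000 bp of the start of 18 of the 77 members (23.4%, against 21.3% of the genes strong in every list), such as Med22 beside Rpl7a and Polr3a beside Rps24, and a shared region cannot be divided between both genes.

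In untreated cells the promoters of ribosomal protein genes were about as open as those of other active genes. Their level in Ctrl ranged from 32.2 to 222 with a median of 99.1, against 94.98 over the 12749 genes, and their median percentile among these was 52.6. Rpl37 (222), Rpl15 (206), Rps29 (200.1) and Rplp0 (181) were among the highest. The lowest were those of Rpl37a (32.2), Rpl4 (37.4), Rps4x (44.5), Rpl24 (52.4) and Rpl35a (61.1). Rpl37 and Rpl37a encode small zinc-binding proteins of the same subunit, so proteins needed in equal number had start-site levels 6.89-fold apart. The highest summit of Rpl4 lay 481 bp and that of Rpl37 251 bp before the nearest annotated start.

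The levels were lower in every treated list. The median over the 77 members was 63.3 with Oxali, 54.6 with Cispl, 66.5 after IFNγ and 41.6 after Oxali + IFNγ, beside 68.9, 59.5, 62.5 and 49.9 over all genes. Their median percentile went from 52.6 in Ctrl to 44.5 with Oxali, 43.9 with Cispl, 54.0 after IFNγ and 37.9 after Oxali + IFNγ. The members kept much of their order, with Spearman coefficients of 0.95, 0.94, 0.93 and 0.89 between the Ctrl level and that of Oxali, Cispl, IFNγ and Oxali + IFNγ over 77 genes, a description of levels that share the gene's sequence and copy number.

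**Figure D2:**
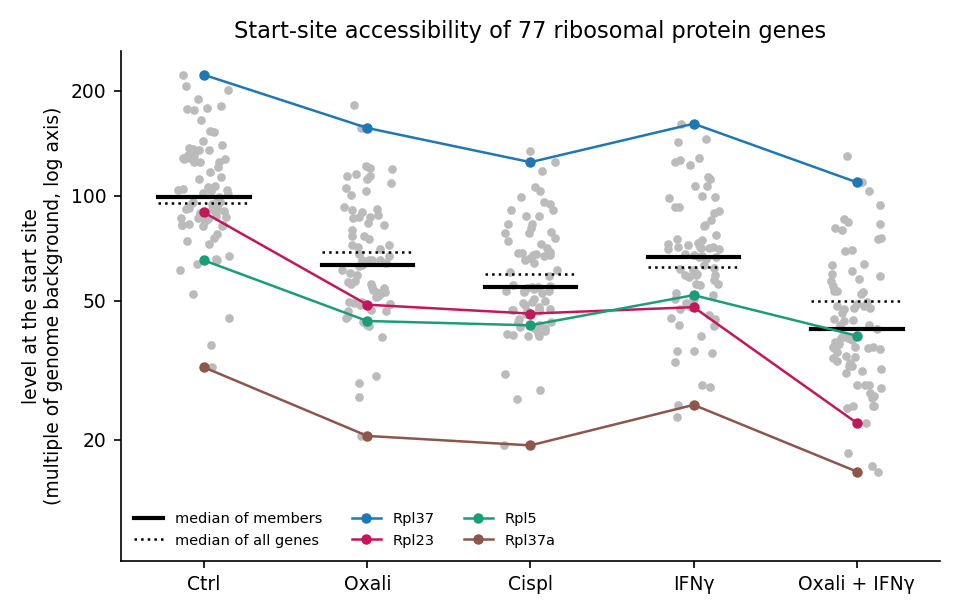
Level at the start site (y axis, multiple of the genome background of the list, log axis) of the 77 members with a strong region in each of the 5 lists (x axis), 1 grey point a gene, with solid lines at the member median, dotted lines at the median of all 12749 genes strong in every list, and 4 members traced in colour. The member median is above that of all genes in Ctrl (99.1 against 94.98) and below it in Oxali + IFNγ (41.6 against 49.9).

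Against Ctrl, every one of the 77 members had a log2 ratio below 0 in each of the 4 treated lists, where 82.6% (Oxali), 86.1% (Cispl), 94.3% (IFNγ) and 85.2% (Oxali + IFNγ) of all genes measured did. The member median was −0.65 with Oxali, −0.83 with Cispl, −0.63 after IFNγ and −1.24 after the combination, and that of all genes was −0.44, −0.64, −0.54 and −0.85. The 95% interval of each member's ratio, which covers counting error only, lay below 0 in every case, as did that of 74.0%, 80.4%, 84.4% and 80.0% of all genes in the same order, and the members' median half-width was between 0.13 and 0.15. Because most open promoters were lower relative to the genome background in the treated lists, the members are best read against the median gene. Relative to it their median was −0.21, −0.19, −0.08 and −0.39, in the same order, and 69, 63, 49 and 72 of the 77 lay below it, the value that divides all genes evenly.

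Past a fold of 1.5 against Ctrl, 49 members were lower with Oxali (63.6%, against 30.8% of all genes), 69 with Cispl (89.6% against 56.0%), 45 with IFNγ (58.4% against 43.4%) and 76 with Oxali + IFNγ (98.7% against 67.4%). No member was higher by that fold in any treated list, whereas 6.3%, 5.46%, 0.412% and 6.94% of all genes were. In all 4 treated lists 34 members were lower by 1.5-fold, 44.2%, against 20.4% of all genes, and Rpl7 was so in none. Just inside the threshold lay Rps28 with Oxali (1.52-fold lower), Rpl38 with Cispl (1.52), Rpl36 with IFNγ (1.51) and Rps29 with Oxali + IFNγ (1.54), and just outside it Rps14 (1.498), Rps29 (1.49), Rplp1 (1.499) and Rpl7 (1.32).

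Taken relative to the median gene, a change of 1.5-fold was rare for the members with the single agents and more frequent with Oxali + IFNγ. It was passed downward by 2 with Oxali (2.60%, against 0.766% of all genes), 1 with Cispl (1.299% against 0.945%), 1 with IFNγ (1.299% against 2.27%) and 15 with Oxali + IFNγ (19.5% against 7.76%). None passed it upward, beside 13.3%, 15.0%, 4.75% and 21.0% of all genes. With IFNγ the share below was thus no larger than over all genes. The local background that the authors' fold is taken over was also lower with treatment, at 6.60 times the genome background for the median member in Ctrl and 4.38 in Oxali + IFNγ (5.72 and 4.196 over all genes). By the authors' fold over that background, the member median against Ctrl was −0.30, −0.51, −0.31 and −0.58, and that of all genes −0.23, −0.36, −0.26 and −0.41, so the distance between both was smaller by this measure. Lower by 1.5-fold in the authors' fold were 1, 30, 7 and 38 members, again in that order (1.299%, 38.96%, 9.09% and 49.4%, against 3.92%, 12.2%, 6.68% and 25.7% of all genes), so with Oxali the share of members was below that of all genes.

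**Figure D3:**
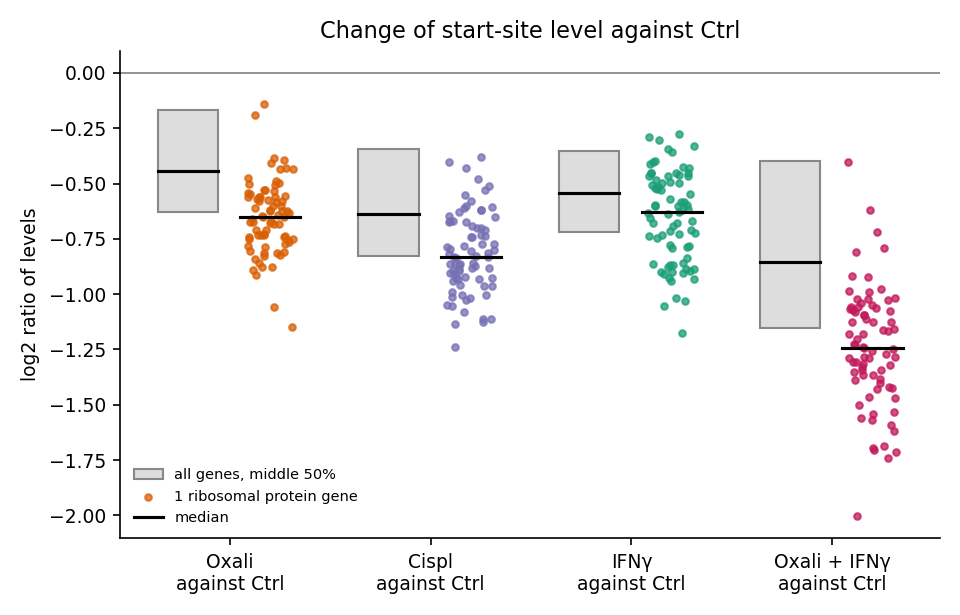
Log2 ratio of the start-site level against Ctrl (y axis) for each treated list (x axis), with the middle 50% of all genes as a grey box, each of 77 members as a coloured point and medians as black lines. All points lie below 0, and the member median is furthest from the all-gene median with Oxali + IFNγ (−1.24 against −0.85).

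The place of a gene in the range of levels moved with these ratios. In 4 classes of all genes by mean level over the 5 lists, treated lists included, so that the ratio itself helps to set the class, 39 members fell into the second lowest, and there the median with Oxali + IFNγ was −1.32 for members and −0.87 for all genes. In the third class, with 19 members, it was −1.18 and −1.001, and in the highest, with 14, −1.06 and −1.07. The 5 members of the lowest class had −1.07 against −0.07. With Oxali the second class gave −0.73 against −0.44, the third −0.58 against −0.53 and the highest −0.55 against −0.58. With IFNγ these 3 classes gave −0.69 against −0.58, −0.63 against −0.59 and −0.48 against −0.58. In classes of GC content of the promoter window, the Oxali + IFNγ median was −1.28 for members and −0.67 for all genes in the lowest class (21 members), −1.24 and −0.86 in the next (19) and −1.33 and −0.98 in the third (15).

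The largest differences from Ctrl were those of Oxali + IFNγ. Rpl23, a large-subunit protein that also binds Mdm2, the inhibitor of p53, had a level of 89.5 in Ctrl, 48.7 with Oxali, 45.9 with Cispl, 47.9 after IFNγ and 22.3 after Oxali + IFNγ. Its log2 ratio there was −2.003 (95% counting interval −2.20 to −1.81), or −1.15 relative to the median gene. The 3 single agents gave nearly the same level at Rpl23, and the combined list lay below all of them. The E-box at its start is shown in capitals above.

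Rps10, of the head of the small subunit, had 90.5 in Ctrl, 54.4 with Oxali, 49.8 with Cispl, 50.6 after IFNγ and 27.1 after Oxali + IFNγ (log2 ratio −1.74). Rps12 had 81.7, 49.2, 53.3, 44.2 and 25.0 in the same order (−1.71). Rpl7a, a large-subunit protein whose promoter holds TCTCGCGA, had 113, 72.2, 67.8, 70.9 and 34.6 (−1.70). In each of these genes the single-agent lists lay close together and the combined list stood well below them. The genes were named for their low Oxali + IFNγ ratios, and that list was below Oxali and below IFNγ at all 77 members.

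At the other end, Rpl7 had 137 in Ctrl, 119.7 with Oxali, 103 with Cispl, 112 after IFNγ and 103 after Oxali + IFNγ (log2 ratio −0.40), but its highest summit lay 716 to 1130 bp before the start. With summits within 1000 bp only, its levels were 121, 119.7, 82.0, 86.4 and 103. Rps29, a zinc-binding protein of the small subunit, had 200.1, 182, 134, 145 and 130.1, and its log2 ratio was −0.14 with Oxali and −0.62 with Oxali + IFNγ, or 0.30 and 0.23 relative to the median gene. Rpl28 had 104, 76.7, 72.6, 81.7 and 59.8 (−0.79 with Oxali + IFNγ). By level these genes were lower than in Ctrl in every treated list, but less so than the median gene. By the authors' fold Rps29 was higher than in Ctrl with Oxali (0.16) and with Oxali + IFNγ (0.064).

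With Oxali alone the lowest ratios were those of Rpl3 (−1.15), which reaches toward the peptidyl transferase centre, Rps3 (−1.06), of the mRNA entry channel, Rps9 (−0.91) and Rpl32 (−0.89). The highest summit of Rpl32 lay within 150 bp of the start in Ctrl and 318 bp before it with Oxali. The highest were those of Rps29 (−0.14), Rpl7 (−0.19), Rps13 (−0.39) and Rpl36a (−0.39). With Cispl the lowest were Rpl3 (−1.24), Rps3 (−1.13), Rps25 (−1.12) and Rpl9 (−1.11), and the highest Rps3a1 (−0.38), Rpl7 (−0.40), Rpl4 (−0.43) and Rpl6 (−0.48). With summits within 1000 bp only, Rpl7 was at −0.56 with Cispl, below the other values named as highest. Rpl3 had 125 in Ctrl, 56.4 with Oxali, 53.0 with Cispl and 68.2 after IFNγ, all at a transcript start inside the gene record, from a region that in Ctrl ended 7668 bp from the 5′ end of that record. Among regions overlapping 1000 bp on either side of that 5′ end, the direction turned with Oxali and Cispl. The levels were 26.7 in Ctrl, 42.9 with Oxali and 35.02 with Cispl (log2 ratios 0.69 and 0.39), while IFNγ had 19.9. After Oxali + IFNγ the highest level of Rpl3, 38.7, came from such a region, at a log2 ratio of 0.53. That region lay wholly before the gene record, with its summit 1041 bp before the nearest start. Syngr1 also starts within 1000 bp of a start of Rpl3, and a shared region cannot be divided between both genes. The principal start had 33.4, a log2 ratio of −1.91, which would put Rpl3 second lowest of the members in that list and Rpl7a outside the 4 lowest. Such a change of region between Ctrl and a treated list was found for 5 members, Rpl3, Rpl24, Rps18 and Rps24 with Oxali + IFNγ and Rpl41 with IFNγ. Both platinum lists are set against the same Ctrl list.

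With IFNγ the lowest ratios were those of Rps15a (−1.18), Rps23 (−1.05), of the decoding centre, Rpl22 (−1.03) and Rpl32 (−1.02). The highest summit of Rpl32 in this list lay 327 bp before the start. The highest were Rps3a1 (−0.28), Rpl7 (−0.29), Rps27a (−0.30) and Rpl5 (−0.33). With summits within 1000 bp only, Rpl7 was at −0.49, below the other values named as highest. Rps15a had 75.7 in Ctrl, 47.1 with Oxali, 40.4 with Cispl, 33.5 after IFNγ and 28.1 after Oxali + IFNγ. Its IFNγ level was below that of both platinum lists, and it was the only member past 1.5-fold below the median gene in this list.

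**Figure D4:**
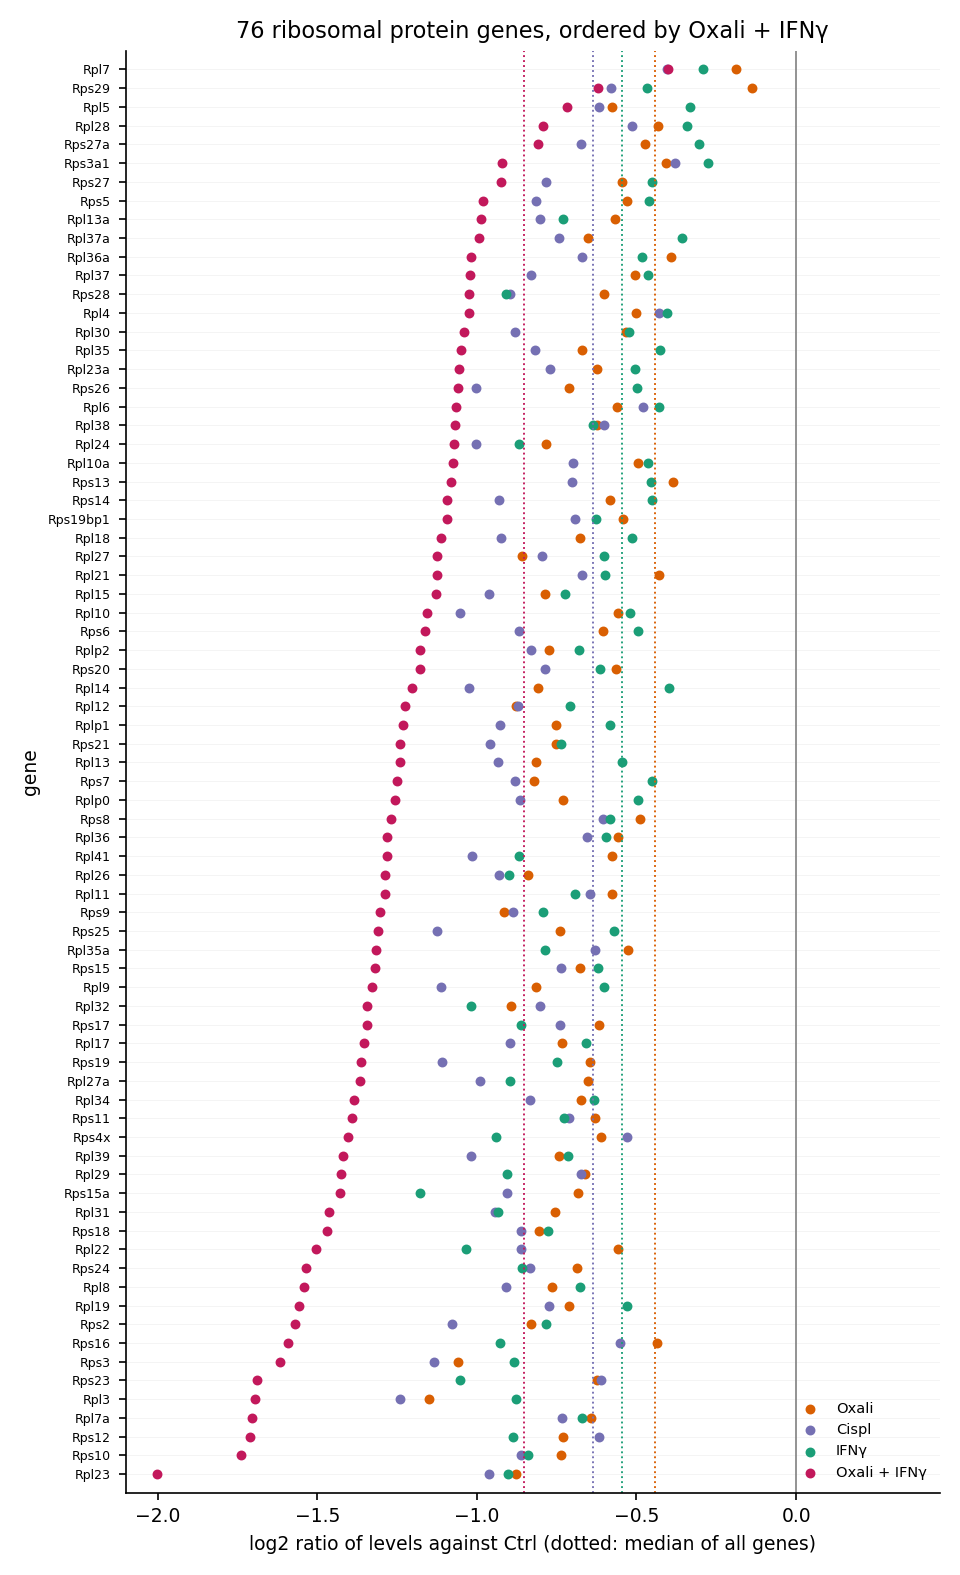
Log2 ratio against Ctrl (x axis) of 76 of the 77 members (y axis, ordered by Oxali + IFNγ), with 1 point for each treated list and dotted lines at the median of all genes. Rpl23 is lowest in Oxali + IFNγ (−2.003) and Rpl7 highest (−0.40), and all points lie below 0.

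Genes with roles beyond or within the ribosome were set out by function. Rpl5 and Rpl11 join 5S rRNA and bind Mdm2 when ribosome assembly fails, as Rpl23 can. Rpl5 had 65.2 in Ctrl, 43.7 with Oxali, 42.5 with Cispl, 51.9 after IFNγ and 39.7 after Oxali + IFNγ, with a log2 ratio of −0.72 (−0.88 to −0.56) in the last. Rpl11 had 95.8, 64.2, 61.2, 59.2 and 39.2 (−1.29, −1.44 to −1.14). The 3 Mdm2 binders thus spanned from near the highest to the lowest ratio of all members in Oxali + IFNγ, with counting intervals that did not overlap, and the spread between replicates of these ratios is not known. By the authors' fold the direction of Rpl5 turned in that list (0.030) and with IFNγ (0.12).

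The stalk proteins draw elongation factors to the ribosome. Rplp0 had 181 in Ctrl, 109 with Oxali, 99.3 with Cispl, 128 after IFNγ and 75.7 after Oxali + IFNγ (log2 ratio −1.26). Rplp1 had 89.1, 53.0, 46.9, 59.4 and 38.0 (−1.23). Rplp2 had 120.7, 70.5, 67.9, 75.4 and 53.3 (−1.18). The order of the 5 lists was the same for all 3, with IFNγ nearest to Ctrl and Oxali + IFNγ furthest. It was also the order of the medians over all members, so it is not particular to the stalk genes.

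Rps6, the substrate of S6 kinase, had 99.1 in Ctrl, 65.2 with Oxali, 54.3 with Cispl, 70.3 after IFNγ and 44.2 after Oxali + IFNγ (−1.16). Rps27a, made as a fusion with ubiquitin, had 139, 100.3, 87.3, 113 and 79.5 (−0.81). Rps27a was among the least changed members, whereas Rps6 lay near the member median.

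Of the 4 X-linked members, Rps4x had the lowest levels, at 44.5 in Ctrl, 29.1 with Oxali, 30.8 with Cispl, 23.2 after IFNγ and 16.8 after Oxali + IFNγ (−1.40). Rpl10, a late-joining large-subunit protein, had 82.2, 55.8, 39.7, 57.3 and 36.9 (−1.16), from a summit 487 to 588 bp before the start. By the authors' fold the direction of Rpl10 turned with Oxali. Rpl36a had 86.1, 65.6, 54.1, 61.6 and 42.5 (−1.02). Rpl39, of the exit tunnel, had 83.0, 49.7, 41.0, 50.6 and 31.1 (−1.42). None of the 4 was at or above the member median of 99.1 in Ctrl. The highest summit of Rpl41 lay in a neighbouring region 1269 bp after the start in Ctrl, and with summits within 1000 bp its levels were 102, 55.6, 53.0, 71.2 and 34.5.

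Genes of the large and of the small subunit were set side by side. The Oxali + IFNγ median was −1.21 for 46 large-subunit and −1.30 for 31 small-subunit genes, and with Oxali it was −0.67 and −0.62, with Cispl −0.83 and −0.81 and with IFNγ −0.60 and −0.73. The small-subunit median was the lower one with IFNγ and Oxali + IFNγ and the higher one with both platinum drugs alone, and the spread between replicates of these differences is not known.

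The platinum drugs were compared directly at the same dose and time, as 1 pair. Cispl was below Oxali at 66 of 77 members, 85.7%, against 85.5% of all genes, with a member median of −0.15 and an all-gene median of −0.20. The 95% counting interval lay below 0 for 39 members (50.6%, against 59.4% of all genes) and above 0 for none. The ratios ranged from −0.49 (−0.66 to −0.32) at Rpl10 to 0.11 (−0.05 to 0.27) at Rps12. The member median was thus less negative than that of all genes by level, but by the authors' fold it was more negative, −0.21 against −0.13.

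Oxali + IFNγ was below Oxali at all 77 members (85.5% of all genes), with a median of −0.55 against −0.38, and below IFNγ at all 77 (74.9% of all genes), with a median of −0.61 against −0.31. The largest steps from Oxali were those of Rps16 (71.1 to 31.8), Rpl23 (48.7 to 22.3) and Rps23 (60.1 to 28.7), and the smallest was that of Rpl5 (43.7 to 39.7), where the counting interval from −0.32 to 0.04 holds 0. On the log2 scale, the ratio of Oxali + IFNγ against Ctrl exceeded the sum of both single ratios by a median of 0.02 for members (middle 50% −0.06 to 0.15) and 0.13 for all genes. For 32 of 77 members, 41.6%, the combined level was below what the single ratios multiply to, against 24.8% of all genes. All 3 ratios share the Ctrl list.

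**Figure D5:**
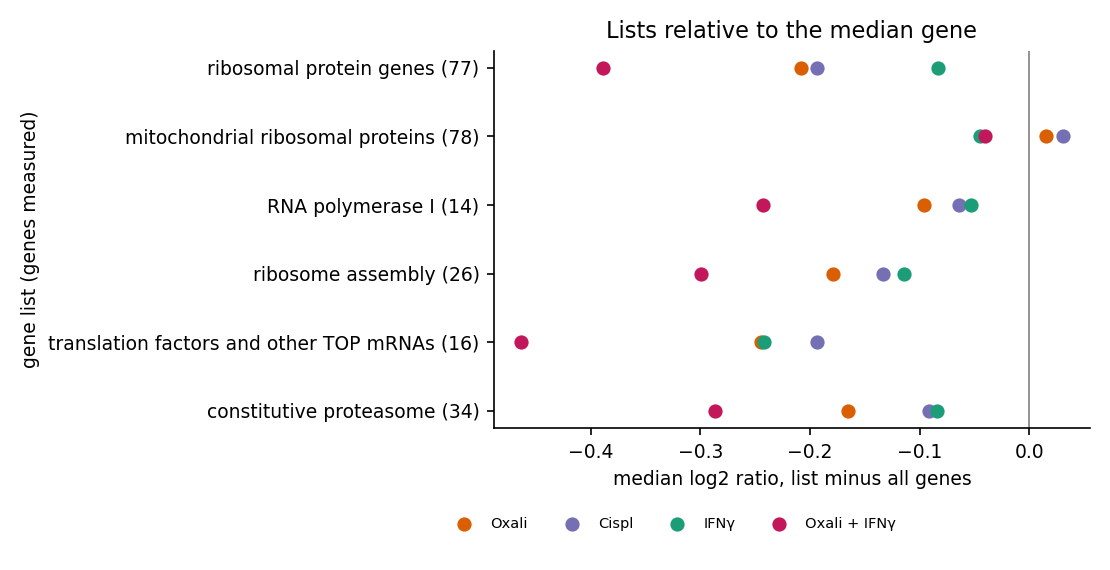
Median log2 ratio against Ctrl minus that of all genes (x axis) for 6 gene lists (y axis, genes measured in brackets), with 1 point for each treated list. The ribosomal protein genes lie at −0.39 and the TOP translation factors at −0.46 with Oxali + IFNγ, and the mitochondrial ribosomal proteins near 0 in every list.

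Gene lists of neighbouring functions were described in the same way, beside 67.4% of all genes lower by 1.5-fold with Oxali + IFNγ. The 16 translation factors and other TOP mRNAs, such as those of elongation factors, were all lower by that fold, with a median of −1.32. Of 26 ribosome assembly factors 25 were so (median −1.15), of 14 genes of RNA polymerase I and its factors, which make rRNA, 13 were (−1.10), and of 34 proteasome genes 33 were (−1.14). Of 78 mitochondrial ribosomal proteins, which serve a separate ribosome, 70 were so, with a median of −0.89 beside −0.85 over all genes. Relative to the median gene, the counts lower by 1.5-fold were 4 (translation factors), 1 (assembly), 1 (RNA polymerase I), 5 (proteasome) and 5 (mitochondrial ribosomal proteins), beside 7.76% of all genes, a share that the assembly, RNA polymerase I and mitochondrial lists did not exceed. Higher by that fold were 3 of the 78 mitochondrial ribosomal protein genes and none of the other 4 lists, beside 21.0% of all genes. With Oxali the medians were −0.69 (translation factors), −0.62 (assembly), −0.54 (RNA polymerase I), −0.61 (proteasome) and −0.43 (mitochondrial ribosomal proteins).

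Ribosomal proteins outside the naming rule had levels in the same range. Fau, fused to a ubiquitin-like protein, had 79.2 in Ctrl, 47.9 with Oxali, 49.1 with Cispl, 34.8 after IFNγ and 24.0 after Oxali + IFNγ (−1.72). Rpsa had 113, 56.4, 59.1, 72.5 and 36.8 (−1.62). Of the paralogues, Rps27l, a p53 target, had 115.0, 79.5, 73.8, 65.8 and 48.9 (−1.23), and Rpl22l1 had 143, 87.6, 79.7, 85.7 and 60.9 (−1.23). All 4 were lower in each treated list than in Ctrl.

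The ratios of members with and without each motif were set side by side. With Oxali + IFNγ the median was −1.23 for 11 members with TCTCGCGA and −1.25 for 46 without it, −1.25 for 21 with the ETS core and −1.25 for 36 without, and −1.19 for 16 with the pyrimidine run and −1.28 for 41 without. Over all genes the element TCTCGCGA went with −1.15 against −0.87 without it, and the ETS core with −0.99 against −0.84. The 5 members with an E-box had −1.38 and the 52 without it −1.25, and the 4 with the YY1 core had −1.15 and the 53 without it −1.25. The widest gap was that of the NRF1 site, with −0.99 for 3 members and −1.27 for the 54 without it, and with IFNγ −0.36 and −0.69. Over all genes it went the other way, with −0.997 against −0.87 for Oxali + IFNγ and −0.61 against −0.54 for IFNγ. For the GC, TATA and CCAAT boxes the Oxali + IFNγ medians with and without the motif were between −1.24 and −1.27.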

How the data were processed

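Per the labels and the study's methods, the authors trimmed ATAC-seq reads with cutadapt, aligned them to mm10 with Bowtie2 2.2.8, kept well-mapped reads with SAMtools, removed duplicate and mitochondrial reads, pooled both libraries of a group and called peaks with MACS2 2.1.0 without a control, dropping blacklisted sequence. The deposited lists give per peak a fold, a ratio of pileup to local background (each plus 1), and −log10 p-values and −log10 q-values from the Poisson distribution. For each peak, a whole-number pileup and its background were solved from the deposited fold and −log10 p, which succeeded within 0.01 for 100% of peaks. Depth per library is not in these lists.

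Regions were joined to GENCODE M21 starts within 1000 bp (strong: q-value of at most 0.01). The level was the pileup over the most frequent lowest background of the list. Ratios used genes strong in both lists. Their 95% intervals are exact conditional binomial intervals and cover counting error only. With 1 pooled list a group, no test was made. All protein-coding genes gave the comparison. The steps were tested on simulated data (Python 3.11.15, numpy 2.4.6, scipy 1.17.1, pandas 2.3.3). The members and lists were chosen with earlier results of these data known. Named were the 5 highest and lowest levels in Ctrl, the 4 highest and lowest ratios per treated list, members without a region, genes of known role, X-linked members and genes just outside the naming rule. A few of these and of the marker genes are not reported here. Genes at a threshold, with summits far from the start, or extreme in the direct comparisons were named after their values were seen. The columns do not hold the authors' comparisons between groups.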

Additional observations from a re-analysis of the deposited data

How the results depend on the processing

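No paired analysis was possible because each list used here pools both libraries of its group, and no library can be left out of such a list. The values rest on the depth of each list and on 1 scaling to its genome background. Values are given in the order Oxali, Cispl, IFNγ and Oxali + IFNγ against Ctrl. The member median log2 ratio was −0.21, −0.19, −0.084 and −0.39 when centred on the median gene and −0.30, −0.51, −0.31 and −0.58 by the authors' fold. Centred, it was −0.17 for Oxali + IFNγ against Oxali, −0.30 against IFNγ and 0.050 for Cispl against Oxali, which turned its direction. By the authors' fold it was −0.27 for Oxali + IFNγ against Oxali and −0.31 against IFNγ, and for Cispl against Oxali −0.21, beside −0.13 over all genes.

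The number of members lower by the threshold was 2, 1, 1 and 15 when centred, 1, 30, 7 and 38 by the authors' fold (over all genes 3.92%, 12.2%, 6.68% and 25.7%), and 25, 22, 12 and 44 by a loss of at least 10 percentile points (over all genes 9.95%, 9.03%, 9.77% and 19.6%). A fold of 2 gave 2, 13 and 4 for the single agents (1.03%, 8.06% and 5.36% of all genes), and a lower fold threshold gave 75 with Oxali and 74 with IFNγ (63.3% and 77.7%). A gain of at least 10 percentile points was seen for 1, 2, 4 and 1 members (10.8%, 9.50%, 9.53% and 18.9%). Taking the 5′ end of the gene record as the start made 1 member higher with Oxali, Rpl3, at 0.69, and put Rpl3 at 0.39 with Cispl and 0.53 with Oxali + IFNγ. For these counts and medians, the other windows, summits within the window, a q-value of at most 1e-05, all deposited regions, an overlap of at least 100 bp, principal starts, the letter-by-letter naming rule (the last 2 chosen after seeing the data) and the other member list moved no count by over 1.5 times and no median by more than 0.048.

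Centred on the median gene, 8, 14, 28 and 5 of the 77 members lay above 0. Of the genes named for each list, these were: with Oxali Rpl36a 0.050, Rps13 0.057, Rpl7 0.25 and Rps29 0.30, with Cispl Rpl6 0.16, Rpl4 0.21, Rpl7 0.23, Rps3a1 0.26, Rpl5 0.019 and Rps4x 0.11, with IFNγ Rpl5 0.21, Rps27a 0.24, Rpl7 0.25, Rps3a1 0.27, Rplp0 0.051, Rps6 0.048, Rpl10 0.023 and Rpl36a 0.062, and with Oxali + IFNγ Rpl28 0.062, Rpl5 0.14, Rps29 0.23, Rpl7 0.45 and Rps27a 0.044. By the authors' fold these turned: with Oxali Rps29 0.16 and Rpl10 0.14, with IFNγ Rpl5 0.12, Rps27a 0.059 and Rps3a1 0.017, and with Oxali + IFNγ Rpl5 0.030 and Rps29 0.064. The cause was not tested.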
